A study of Mus musculus with 7 samples.

Results

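The comparison described here sets CD8 dendritic cells with a high surface level of CD103 from CpG-treated C57BL/6 mice against CD8 dendritic cells with a low level of CD103 from untreated C57BL/6 mice. Its members are 4 of the 7 libraries of the series, chosen by their titles and labels: CpG CD103 high replicates 1 and 2, dated 2012, and CD103 low replicates 1 and 2, dated 2013. The other libraries are from untreated CD103 negative cells, replicates 1 and 2 of 2012 and replicate 3 of 2013, and served to show which genes moved with the date. All cells were isolated by fluorescence-activated cell sorting, and total RNA was sequenced. CpG denotes DNA motifs that engage Toll-like receptor 9. The sources used here give no dose, route or time for the treatment, no tissue, and no word on pooling of mice. The design text calls the samples of each group biological replicates. Because the CpG-treated cells are also those with high CD103, the effects of treatment and of CD103 level cannot be told apart. These libraries are called CpG-treated below.

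Dendritic cells with CD8 are part of the cDC1, a conventional subset that engulfs dying cells and cross-presents antigens from them to CD8 T cells through MHC class I. CD103 is the αE integrin chain, encoded by Itgae. It pairs with the β7 chain and binds E-cadherin on epithelia. On splenic cDC1 it rises late in development and under cytokines, and both sides of the comparison carry it, at different levels. Dendritic cells that have passed through a systemic inflammatory response are known to be slow to start new T cell responses, a state called paralysis in the series' title.

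Levels are given as counts scaled to 1e+06 per library (CPM), after adjustment of the library totals. Each library held between 4474211 and 4629181 counts. The direct difference is the log2 fold change of the CpG CD103 high libraries over the CD103 low libraries. The date difference is the log2 fold change of CD103 negative cells of 2012 over those of 2013. The date-adjusted difference is the direct one minus the date difference, with its standard error (SE), and genes with a Benjamini-Hochberg adjusted p below 0.05 were called. Verbs of change below refer to date-adjusted calls unless the direct difference is named. The date-adjusted difference rests on a single CD103 negative library of 2013, and that library stood apart: the plasmacytoid dendritic cell gene Siglech had 19.2 CPM there and at most 4.77 in the other 6 libraries. In CD103 negative replicate 1 the chemokine receptor gene Cxcr4 stood at 272 CPM, against 7.62 to 69.7 elsewhere. CD103 low replicate 2 held T cell transcripts, with Thy1 at 10.3 CPM and 0 to 0.227 elsewhere. Counts over gene lists are therefore given in both forms, and values of single genes are date-adjusted unless the direct difference is named. The direct difference contains no level from a CD103 negative library, although all 7 share the estimate of spread.

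Itgae (Entrez 16407, mm10 chromosome 11, 73090505 to 73147449) was graded as the sort would have it, at 1019 and 992 CPM in the 2 CpG-treated libraries and at 346 and 375 CPM in the 2 CD103 low libraries, and at 61.7, 62.7 and 54.3 CPM in the CD103 negative libraries. Its date difference was 0.20 (SE 0.12). The sort used this protein, so these levels serve as a check of the labels. Its date-adjusted difference of 1.28 (SE 0.14) belongs to that check. Cd8a, the gene of the CD8 alpha chain, had 1370.4 and 1280.2 CPM in CpG-treated cells and 1383 and 1428 in CD103 low cells, with a date-adjusted difference of -0.37 (SE 0.12, adjusted p 0.0969).

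The widest rises in CpG-treated cells included GTPases that interferons induce, a small GTPase regulator and several genes of membrane and transport proteins. Tgtp1, an immunity-related GTPase that attacks the vacuoles of intracellular pathogens, stood at 164 and 88.5 CPM in CpG-treated cells and at 12.9 and 12 in CD103 low cells (date-adjusted log2 fold change 3.46, SE 0.52, adjusted p 0.0064). Both CpG CD103 high libraries lay above the other 5, although replicate 1 lay well above replicate 2. Tgtp2, also called higher directly and date-adjusted, is a close copy of Tgtp1, so the split of reads between them is uncertain. Iigp1 of the same family stood at 201 and 134 against 11.1 and 17.7 CPM and rose by 3.43 (SE 0.52). Gbp2b, a guanylate-binding protein of antimicrobial defence, stood at 34.6 and 33.4 against 3.41 and 2.07 CPM and rose by 3.37 (SE 0.65, adjusted p 0.0181). For Tgtp1, Iigp1 and Gbp2b the CD103 low and CD103 negative libraries overlapped.

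Dpy19l3, a mannosyltransferase of the endoplasmic reticulum, stood at 64.8 and 70.1 CPM in CpG-treated cells and at 5.00 and 7.13 in CD103 low libraries (3.16, SE 0.47, adjusted p 0.0064). Hip1, a clathrin adaptor of endocytosis, stood at 86.1 and 82.5 against 14.5 and 14 CPM (2.96, SE 0.29, adjusted p 0.001). The replicates of each group lay close together in both genes. The groups did not overlap, which the rule required of these genes. Of all genes tested, 28.1% were higher and 30.6% lower without overlap of the compared libraries. Rap1gap, which switches off the small GTPase Rap1, had the widest date-adjusted rise of the genes named by the rule (4.78, SE 0.70), from 1.59 and 2.76 to 19.7 and 26.0 CPM. Part of its size came from CD103 negative cells, where it stood at 0.878 and 1.51 CPM in 2012 and 3.19 in 2013, and the direct difference was 3.38 (SE 0.32). Psd3, an exchange factor for ARF6, was likewise wider after the adjustment (3.40, SE 0.43) than before it (1.97, SE 0.25). The same held for Abca13, a lipid transporter (2.53 and 1.80), Lilr4b, an immunoglobulin-like receptor (2.45 and 1.36), and Cabp4, a calcium-binding protein (2.43 and 1.41). Lilr4b is one of a family of similar receptor genes, so its counts are uncertain.

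**Figure D1:**
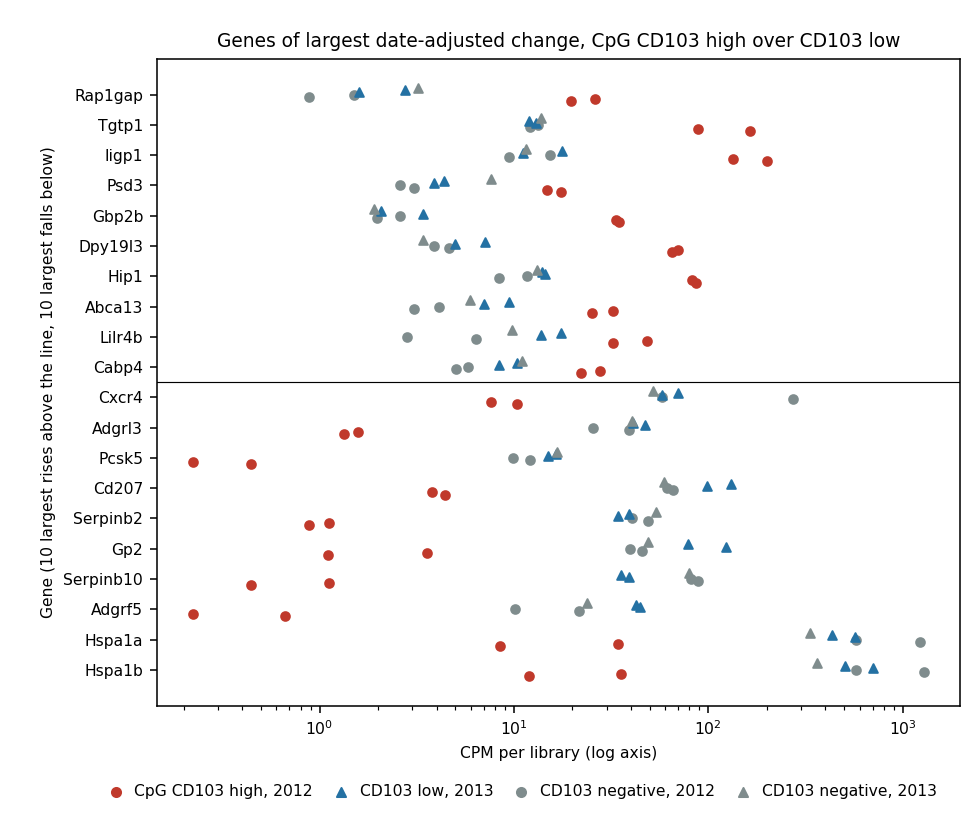
CPM per library on a log axis for the 10 widest rises and the 10 widest falls named by the rule in CpG CD103 high over CD103 low cells, with 1 point for each of 7 libraries, coloured by group and shaped by date. The rule took only genes without overlap of the compared libraries. CpG CD103 high points therefore lie to the right of both CD103 low points in the upper block and to the left in the lower block. CD103 negative replicate 1 reaches 272 CPM for Cxcr4.

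The steepest falls brought genes near the detection limit. Serpinb10 and Serpinb2, neighbouring protease inhibitor genes of the clade B serpin cluster on chromosome 1, stood at 39.1 and 35.6 and at 34.5 and 39.3 CPM in the CD103 low libraries. The CpG-treated libraries held 2 and 5 counts of Serpinb10 and 4 and 5 of Serpinb2. The summed counts were 47.8-fold higher in CD103 low cells for Serpinb10 (exact 95% interval of counting error 23 to 120) and 36.8-fold higher for Serpinb2 (19.1 to 81.1). Date-adjusted differences were -5.61 (SE 0.34, adjusted p 4.26e-05) and -4.90 (SE 0.34). In both genes the CD103 low libraries lay below the CD103 negative ones, which held 88.3, 81.1 and 80.0 CPM of Serpinb10 and 48.7, 40.5 and 53.6 CPM of Serpinb2.

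Cd207, the C-type lectin langerin that marks Langerhans cells and part of the cDC1, fell from 98.3 and 131 CPM in CD103 low to 4.44 and 3.81 in CpG-treated cells (-4.88, SE 0.29, adjusted p 4.26e-05). Gp2, a receptor for bacterial pili, fell from 124 and 79.1 to 1.11 and 3.59 CPM (-5.22, SE 0.49). In both genes CD103 low cells held more RNA than CD103 negative cells (65.9, 61.0 and 59.4 CPM for Cd207 and 45.5, 39.7 and 48.7 for Gp2), so the untreated cells with CD103 stood at the top and the CpG CD103 high cells at the bottom. Adgrf5, an adhesion receptor, showed the same order, with 44.7 and 42.3 CPM in CD103 low and 21.5, 10.1 and 23.8 CPM in CD103 negative cells. It had 3 and 1 counts in the CpG-treated libraries, a ratio of 97.6 (interval 37.8 to 360). Pcsk5, a proprotein convertase, had 3 counts in CpG-treated cells and 138 in CD103 low cells, a ratio of 47.1 (15.8 to 231). The adhesion receptor Adgrl3 had 13 against 386 counts (-4.58, SE 0.42).

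The inducible Hsp70 chaperone genes Hspa1a and Hspa1b both fell. Hspa1a stood at 8.43 and 34.3 CPM in CpG-treated libraries and at 572 and 435 in CD103 low libraries, a direct difference of -4.56 (SE 0.50). In CD103 negative cells it stood at 1225 and 574 CPM in 2012 and 332 in 2013, which widened the date-adjusted difference to -6.00 (SE 0.76, adjusted p 0.00341). Hspa1b gave -6.02 (SE 0.72) after and -4.66 (SE 0.47) before the adjustment. The pair is nearly identical in sequence, so the split of reads between them is uncertain. Cxcr4, the receptor of the chemokine CXCL12, fell from 57.9 and 69.7 to 10.4 and 7.62 CPM. Its date-adjusted difference of -4.49 (SE 0.97, adjusted p 0.0269) leaned on CD103 negative replicate 1, and was -2.98 without that library. The call was lost without either CD103 low library or without CpG CD103 high replicate 2.

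Across the transcriptome 10863 genes were tested. Date-adjusted, 676 genes (6.22%) were called, 374 higher (3.44%) and 302 lower (2.78%) in CpG CD103 high cells, and 356 of them changed at least 2-fold. Directly, 1640 genes (15.1%) were called, 816 higher (7.51%) and 824 lower (7.59%). Both contrasts called 460 genes in the same direction (4.23%), 209 higher (1.92%) and 251 lower (2.31%). The medians over all genes lay at -0.02 and -0.01. The date-adjusted count rested on each CD103 low library: it was 115 without replicate 1 and 166 without replicate 2, and 284 without CD103 negative replicate 1. The direct count was 513 and 637 without CD103 low replicates 1 and 2, and 1028 without CpG CD103 high replicate 1. Of 80 genes named here by the rule and called date-adjusted, 33 kept the call in each of 6 fits that left out 1 library and 47 did not. Those that kept it were Adgrf5, Adgrl3, Apol7c, Cabp4, Ccl5, Ccl6, Cd207, Dpy19l3, Gp2, Hip1, Hk3, Hspa1a, Hspa1b, Ifitm3, Iigp1, Irf1, Itgae, Ly6c2, Ms4a1, Mx1, Nlrc5, Pcsk5, Psd3, Rap1gap, Rps9, Samsn1, Septin3, Serpinb10, Serpinb2, Serpinb8, Stmn1, Tgtp1 and Vcam1. These fits could not leave out CD103 negative replicate 3, and with no date term Ly6c2, Mx1, Nlrc5, Rps9 and Stmn1 lost the call. Ranges of list counts below are over the same 6 fits, and the lowest count came, alone or tied, without a CD103 low library. Each list count below stands against the shares of all genes. These are 3.44% higher and 2.78% lower date-adjusted, and 7.51% higher and 7.59% lower directly.

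**Figure D2:**
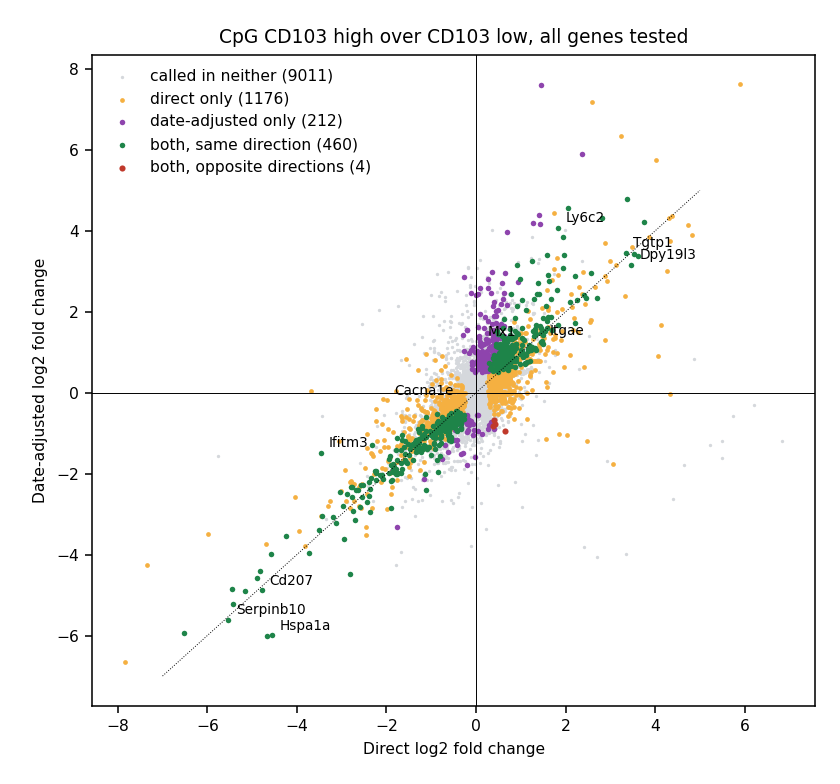
Direct (x axis) and date-adjusted (y axis) log2 fold change of CpG CD103 high over CD103 low cells for each gene tested, coloured by the contrast that called it, with the line of equal values dotted. Most genes called in both contrasts in the same direction (460) lie near the dotted line, while Mx1 lies high above a direct difference of 0.10 and Ly6c2 has 4.08 against 1.84.

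Interferon-induced genes, described here against the 3.44% of all genes called higher and 2.78% called lower, mostly rose where called. Of 42 measured members 14 rose and 1 fell, with a median of 0.72, and directly 19 were higher and 2 lower. The rises include both Tgtp1 and its copy Tgtp2, which are not independent. The number that rose was 4 without CD103 low replicate 1, the lowest of the fits that left out a library. Irf1, a transcription factor that interferon gamma induces, stood at 315 and 285 CPM in CpG-treated cells and 175 and 164 in CD103 low cells (1.04, SE 0.14, adjusted p 0.00474). Irgm1, a regulatory GTPase of the same family as Tgtp1, rose by 1.55 (SE 0.29), from 66.3 and 64.8 to 253 and 174 CPM. The cytosolic nucleic acid sensor Zbp1 rose by 1.53 (SE 0.30), the oligoadenylate synthetase-like gene Oasl1 by 1.72 (SE 0.37, directly 2.21) and the guanylate-binding protein gene Gbp2 by 1.48 (SE 0.26).

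Members of the list did not all move. Isg15, a ubiquitin-like antiviral protein, had a date-adjusted difference of -1.21 (SE 0.51, adjusted p 0.191), the antiviral enzyme Rsad2 -1.72 (SE 0.62, adjusted p 0.125) and the chemokine gene Cxcl10 -0.69 (SE 0.32, adjusted p 0.233). Irf9, which acts with STAT factors, gave 0.08 (SE 0.16). Ifitm3, which blocks viral entry, fell in both forms of the comparison but by different amounts. It stood at 7.99 and 7.62 CPM in CpG-treated cells and 80.4 and 92.6 in CD103 low libraries, and at 18.7 and 18.5 CPM in CD103 negative cells of 2012 and 73.6 in those of 2013. The direct difference of -3.47 (SE 0.15) thus became -1.48 (SE 0.23, adjusted p 0.00731). Mx1, annotated by RefSeq as a transcribed pseudogene in this strain's reference genome, went the other way. Its levels in the compared libraries were alike (92.5 and 96.4 against 86.1 and 90.6 CPM), and the date-adjusted rise of 1.25 (SE 0.17) came from CD103 negative cells, with 39.1 and 45.9 CPM in 2012 and 94.5 in 2013.

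**Figure D3:**
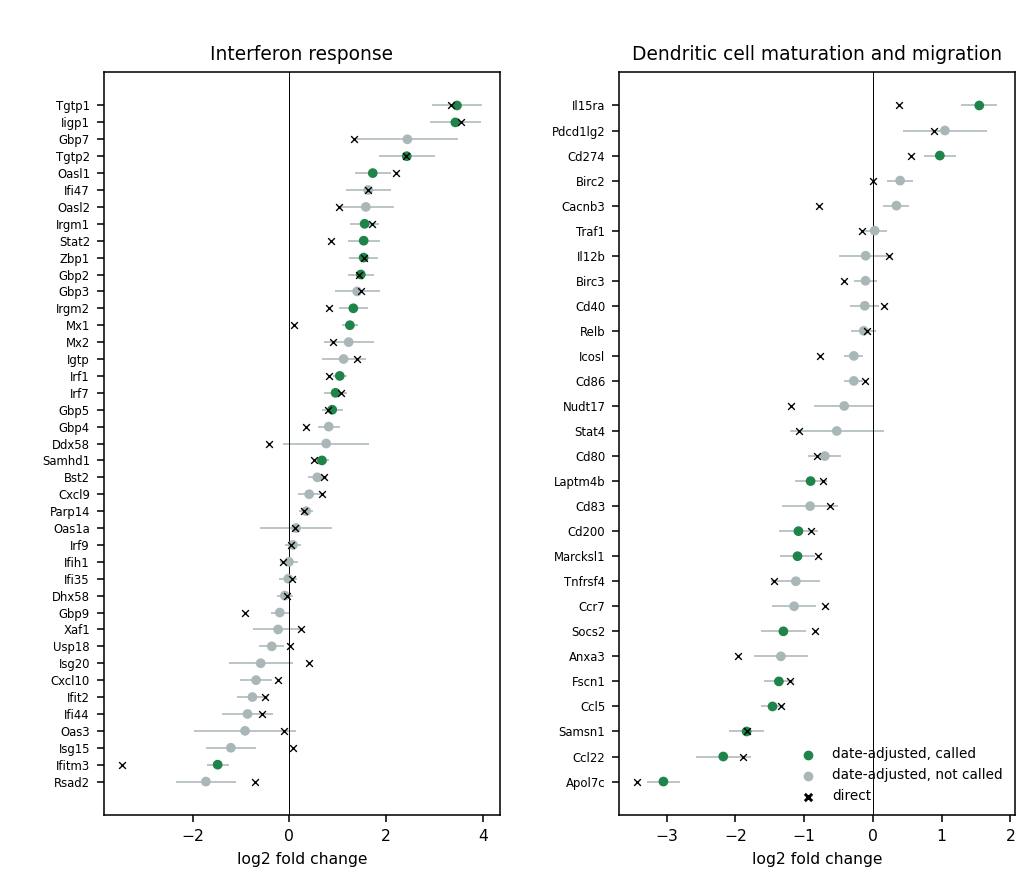
Date-adjusted log2 fold change with its SE (filled points, green where called) and direct log2 fold change (crosses) for measured members of the interferon response list (left) and of the dendritic cell maturation and migration list (right). Called interferon genes lie to the right of 0 except Ifitm3, and called maturation genes lie to the left except Cd274 and Il15ra.

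Interferons act on such genes through the interferon-stimulated response element (ISRE), which IRF and STAT factors read, and the gamma-activated site (GAS), which STAT dimers read. An ISRE core was taken as GAAA, any 2 bases and GAAA, and a GAS as TTC, any 3 bases and GAA, searched on both strands in the 250 bases before each gene's start. At least 1 ISRE core was present in 3.46% of all genes with a promoter in the RefSeq table (GRCm38.p6, the build called mm10), and a GAS in 8.13%. Among the 13 interferon response genes higher in both contrasts, 11 had a promoter there, of which 7 held an ISRE core and 6 a GAS. The copies Tgtp1 and Tgtp2 are among both the 7 and the 6. Over the whole list, of 32 measured members with a promoter, 16 held an ISRE core and 12 a GAS. In the 209 genes higher in both contrasts, interferon response genes included, the shares were 8.81% and 13.8% of the 159 with a promoter. The 14 of them with an ISRE core include the 7 interferon response genes. In the 251 that were lower the shares were 4.49% and 8.99% of 178. Among all genes tested they were 3.39% and 7.07% of the 8576 with a promoter.

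The promoters below belong to interferon-induced genes that rose, and were chosen because they hold a motif, to show how the motifs lie. Each runs 5′ to 3′ on the gene's strand and ends at the base before the start, with capitals for ISRE cores and GAS. They cover chr11:48992247-48992496 (minus strand) for Tgtp1, chr11:58214727-58214976 (plus strand) for Irgm2, chr11:48871421-48871670 (minus strand) for Irgm1, chr3:142594597-142594846 (plus strand) for Gbp2b and chr11:53769764-53770013 (plus strand) for Irf1.
Tgtp1: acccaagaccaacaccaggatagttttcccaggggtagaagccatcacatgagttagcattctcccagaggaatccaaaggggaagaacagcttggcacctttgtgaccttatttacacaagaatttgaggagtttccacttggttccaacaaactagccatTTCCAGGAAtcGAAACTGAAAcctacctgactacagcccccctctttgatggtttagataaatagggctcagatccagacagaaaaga
Irgm2: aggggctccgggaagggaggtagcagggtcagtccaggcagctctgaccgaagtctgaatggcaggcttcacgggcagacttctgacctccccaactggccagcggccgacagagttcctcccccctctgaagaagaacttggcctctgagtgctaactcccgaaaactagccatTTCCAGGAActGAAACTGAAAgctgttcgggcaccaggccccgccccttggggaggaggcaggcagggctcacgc
Irgm1: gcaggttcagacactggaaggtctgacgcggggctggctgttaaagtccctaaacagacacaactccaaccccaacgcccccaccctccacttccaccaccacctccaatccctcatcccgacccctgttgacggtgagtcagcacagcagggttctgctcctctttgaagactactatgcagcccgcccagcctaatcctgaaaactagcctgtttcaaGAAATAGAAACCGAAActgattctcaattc
Gbp2b: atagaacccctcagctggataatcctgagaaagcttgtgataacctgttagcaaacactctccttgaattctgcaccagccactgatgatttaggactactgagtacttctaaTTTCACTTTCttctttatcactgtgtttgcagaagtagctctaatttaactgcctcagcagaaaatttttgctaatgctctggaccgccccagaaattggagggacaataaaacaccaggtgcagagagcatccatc
Irf1: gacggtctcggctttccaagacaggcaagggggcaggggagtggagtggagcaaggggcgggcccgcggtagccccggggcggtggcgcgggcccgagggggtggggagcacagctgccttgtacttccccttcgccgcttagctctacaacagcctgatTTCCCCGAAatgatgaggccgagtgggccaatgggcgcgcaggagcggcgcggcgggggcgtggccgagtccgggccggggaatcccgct
In Tgtp1 a GAS begins 88 bases and an ISRE core 77 bases before the start, and Irgm2 holds the same pair at 75 and 64 bases. Irgm1 has 2 overlapping ISRE cores, the first 30 bases before the start, Gbp2b a single ISRE core on the other strand at 137 bases, and Irf1 a single GAS at 90 bases. The second Irf1 promoter of the RefSeq table, and those of Oasl1 and Irf7, which also rose, held neither. Irgm2 rose from 32.2 and 24.6 to 50.4 and 49.5 CPM (1.32, SE 0.30, directly 0.81). A match of letters describes the sequence and says nothing on which factor was bound in these cells.

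In MHC class I presentation 4 of 24 measured genes rose and 0 fell (median 0.07), and directly 9 were higher and 0 lower. Beside 3.44% of all genes that rose, the range was 1 to 4 rises, with the fewest without CD103 negative replicate 1 or either CD103 low library. Tap1, a subunit of the transporter that brings peptides to class I molecules, stood at 1117 and 1167 CPM in CpG-treated cells and 768 and 733 in CD103 low cells (0.58, SE 0.12, adjusted p 0.024). Nlrc5, which drives class I transcription, rose by 1.45 (SE 0.17) date-adjusted and by 0.49 (SE 0.11) directly, and its level in CD103 negative cells was 114 and 123 CPM in 2012 and 230.5 in 2013. H2-Q7, a class I gene outside the classical set, of a family with near-identical copies, rose by 0.63 (SE 0.14, adjusted p 0.03) but was not called directly (0.26, adjusted p 0.0754).

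In MHC class II presentation 2 of 22 genes rose and 2 fell (median -0.03), and directly 5 were higher and 6 lower. The ranges were 0 to 1 rises and 0 to 3 falls. Cd74, the invariant chain that escorts class II molecules, fell from 40289 and 41814 CPM in CD103 low to 30076 and 30516 in CpG-treated cells (-0.47, SE 0.11, adjusted p 0.0325). H2-Eb2, a class II beta chain gene, fell by 1.04 (SE 0.23). Ciita, the transactivator of the class II genes, rose by 0.53 (SE 0.12, adjusted p 0.0355), from 1021 and 1041 to 1333 and 1367 CPM. The class II chain H2-Ab1 stood at 15784 and 15295 against 18866 and 20208 CPM (-0.38, SE 0.11, adjusted p 0.0758). For Cd74 and H2-Ab1 the CD103 negative libraries (34327, 30699 and 31721 CPM for Cd74) lay near the CpG CD103 high ones, and both CD103 low libraries lay above. Ctsl, a lysosomal protease, rose by 2.72 (SE 0.57) at low levels (7.32 and 4.71 against 2.50 and 2.07 CPM), with a direct difference of 1.39 (SE 0.39). Its levels in CD103 negative cells were 3.29 and 2.59 CPM in 2012 and 7.45 in 2013, and the call was lost in 5 of 6 fits that left out a library.

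The maturation and migration list showed 9 falls and 2 rises among 28 measured genes (median -0.61), and directly 17 were lower and 1 higher. Of all genes 2.78% fell and 3.44% rose, and directly 7.59% were lower and 7.51% higher. Without CD103 low replicate 1 the list held 4 falls. Apol7c, an apolipoprotein L that cDC1 express on activation, fell from 1553 and 1228 to 119 and 138 CPM (-3.05, SE 0.23, adjusted p 0.000246), the deepest fall of the list, in a family of similar genes whose counts are uncertain. Ccl5, a chemokine for T cells, stood at 25.7 and 23.3 CPM in CpG-treated cells, 64.7 and 59.8 in CD103 low and 129, 123 and 116 in CD103 negative libraries, so the 3 groups did not overlap (-1.46, SE 0.17, adjusted p 0.00244). The adaptor gene Samsn1 fell from 92.6 and 86.0 to 26.4 and 23.5 CPM (-1.84, SE 0.25). Fscn1, which bundles actin in dendrites, fell by 1.37 (SE 0.22, adjusted p 0.0084). Ccr7, the homing receptor for lymph nodes, stood at 129.8 and 118 against 187 and 213 CPM, called directly (-0.69, adjusted p 0.0486) but not date-adjusted (-1.15, adjusted p 0.0672). The costimulatory ligand genes of the list gave -0.70 for Cd80 (SE 0.24), -0.28 for Cd86 (SE 0.14) and -0.12 for Cd40 (SE 0.21), none of them called.

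Against this direction Cd274, the gene of PD-L1, which restrains T cells, rose from 41.1 and 49.7 to 72.5 and 60.1 CPM (0.97, SE 0.23, adjusted p 0.0381, directly 0.55). Tnfrsf14, a ligand of the inhibitory receptor BTLA, rose by 0.81 (SE 0.21, adjusted p 0.0468). Both calls lay near the threshold and were lost in 5 (Cd274) and 6 (Tnfrsf14) of 6 fits that left out a library. In the list of costimulatory and coinhibitory ligands these were the only 2 of 15 that rose, and 0 fell, while directly 5 were higher and 3 lower.

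Of 20 cytokine and chemokine genes 4 fell and 0 rose (median -0.58), beside 2.78% of all genes that fell. The range was 2 to 7 falls, and directly 1 was higher and 6 lower. The members that fell were Ccl5, Ccl22, a chemokine of mature dendritic cells (117 and 118 to 22.9 and 40.3 CPM, -2.18, SE 0.40), Ccl6 (-2.29, SE 0.33) and Ltb, lymphotoxin beta (24.3 and 22.5 to 4.66 and 4.48 CPM, -2.11, SE 0.39). Of the chemokine receptors Cxcr3, which binds the interferon-induced chemokines, rose from 85.6 and 93.6 to 137 and 157 CPM (0.75, SE 0.17, adjusted p 0.03), and Cxcr4 fell as described. In this list 1 of 11 members rose and 1 fell, with ranges of 0 to 1 rises and 0 to 2 falls, and directly 2 were higher and 2 lower.

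**Figure D4:**
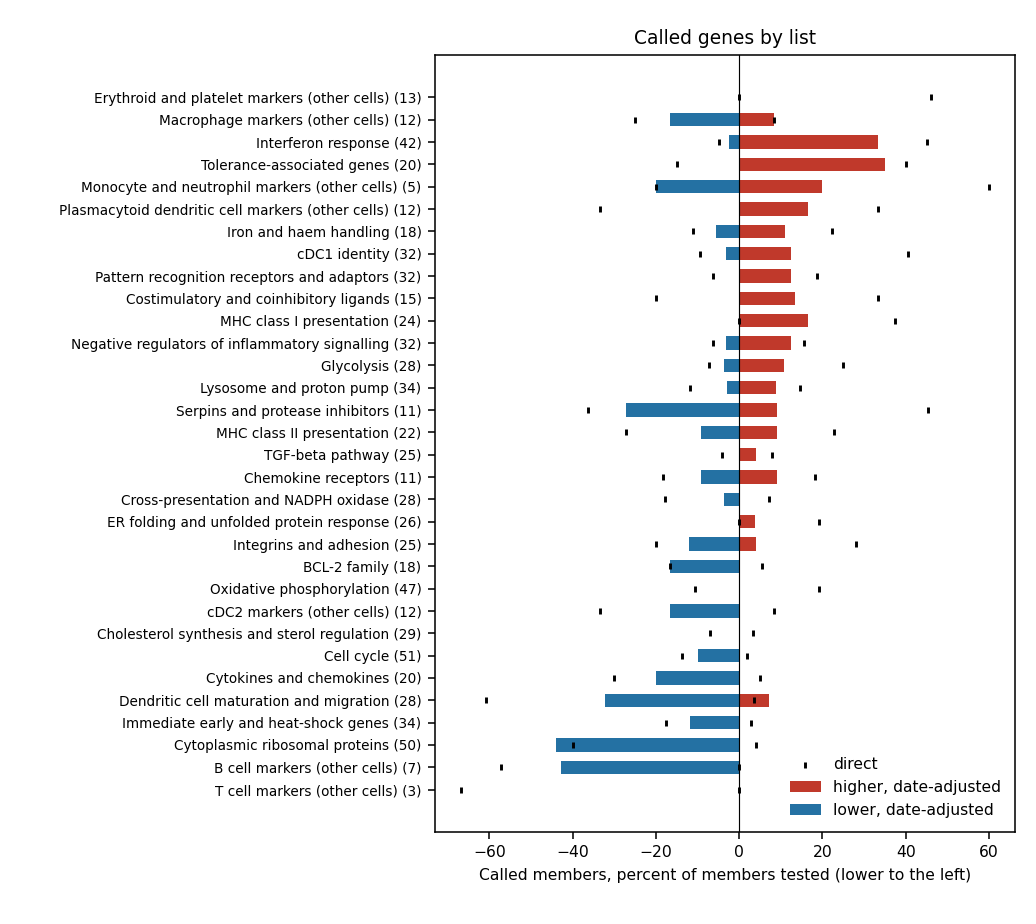
Called members of each list, except NK cell markers, as percent of its measured members (number in brackets), higher to the right and lower to the left. Bars show the date-adjusted contrast and ticks the direct contrast, and lists are ordered by the median date-adjusted log2 fold change. Interferon response and tolerance-associated genes have the longest bars to the right, and cytoplasmic ribosomal proteins, B cell markers and maturation genes those to the left.

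In the list of genes associated with tolerance 7 of 20 measured members rose and 0 fell (median 0.43), and directly 8 were higher and 3 lower. Of all genes 3.44% rose and 2.78% fell, and directly 7.51% were higher and 7.59% lower. The number of members that rose was fragile: between 0 (without CD103 low replicate 1) and 5 members rose in the fits that left out a library. Its members act in different ways. Stat3, the transducer of interleukin 10 and interleukin 6, rose from 316 and 334 to 505 and 463 CPM (0.77, SE 0.14, adjusted p 0.0146). Fgl2, a secreted fibrinogen-like protein, rose from 446 and 476 to 969.5 and 849 CPM (0.72, SE 0.14). Lgals3, the glycan-binding galectin 3, stood at 1355 and 1289 CPM in CpG-treated cells, 627 and 604 in CD103 low and 483, 393 and 332 in CD103 negative libraries, the order of Itgae (0.70, SE 0.16, directly 1.10). Hmox1, haem oxygenase 1, rose from 117 and 125 to 335 and 447 CPM (1.55, SE 0.37, adjusted p 0.0388). Havcr2, the inhibitory receptor TIM-3, was lower directly (-0.64, adjusted p 0.00134) and not called date-adjusted (-0.48, adjusted p 0.0741).

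Iron and haem handling held 2 rises and 1 fall among 18 genes, with ranges of 0 to 2 rises and 0 to 2 falls, and directly 4 were higher and 2 lower. Next to Hmox1, Blvrb, a biliverdin reductase of the same breakdown pathway, rose from 3.63 and 4.60 to 18.0 and 17.3 CPM (2.24, SE 0.44, adjusted p 0.0182). Hfe, the haemochromatosis protein, stood at 319.9 and 339 CPM in CD103 low cells and fell to 219 and 211 in CpG CD103 high cells, near the CD103 negative libraries at 212, 168 and 172 CPM (-0.76, SE 0.18). Among erythroid transcripts haemoglobin alpha (Hba-a1) stood at 13.5 and 13.2 CPM in CpG-treated cells and 5.22 and 1.84 in CD103 low libraries. Of 13 measured erythroid and platelet markers 6 were directly higher and 0 lower, while 0 were called date-adjusted by edgeR (2 higher at an unadjusted p under 0.05), 0 by DESeq2 and 1 by limma voom. The summed level of the whole list was 203 and 166 CPM in CpG-treated cells, 108 and 109.9 in CD103 low and 95.1, 101 and 96.6 in CD103 negative libraries. The part of these markers in the rise of Hmox1 and Blvrb was not tested.

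The cDC1 identity list leaned higher in CpG CD103 high cells directly, with 13 of 32 members higher and 3 lower, while date-adjusted 4 rose, Itgae among them, and 1 fell (median 0.20). The ranges were 2 to 6 rises and 0 to 2 falls. Tlr3, the sensor of double-stranded RNA, stood at 1069 and 1078 CPM in CpG-treated cells, 689.8 and 682 in CD103 low and 509, 553 and 532 in CD103 negative libraries (0.65, SE 0.13, adjusted p 0.0181). The 3 groups lay in the order of Itgae without overlap. Septin3, a cytoskeletal GTPase, rose from 190.3 and 247 to 497 and 498 CPM (1.18, SE 0.20) and the orphan receptor Gpr33 from 36.6 and 30.6 to 95.4 and 67.7 CPM (1.52, SE 0.30). Xcr1, the chemokine receptor of the subset, stood at 2515 and 2089.9 against 1588 and 1676 CPM, called directly (0.50, adjusted p 0.00675) and not date-adjusted (0.41, SE 0.15, adjusted p 0.131). Irf8, the factor on which the subset depends, stood at 3175 and 2933 against 1952 and 2059 CPM. CD103 negative libraries held 2296, 2374 and 1816 CPM of Irf8, the last in the single library of the later date. The date-adjusted difference of Irf8 was 0.24 (adjusted p 0.256) and was not called. Irf8 thus differed between the dates in CD103 negative cells, but a single library cannot tell the date apart from its own make-up. Cd36, a scavenger receptor for dead cells and lipids, fell from 769.9 and 746 to 471 and 442 CPM (-0.73, SE 0.15). It was also the only member called date-adjusted among 28 genes of cross-presentation and the NADPH oxidase, of which directly 2 were higher and 5 lower. Of all genes 7.51% were directly higher and 7.59% lower.

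Among integrins and adhesion genes 1 of 25 measured members rose, Itgae itself, and 3 fell (range 1 to 3 falls), and directly 7 were higher and 5 lower. Itgb7, the partner of the αE chain, stood at 345 and 333 CPM in CpG-treated cells and 237 and 237 in CD103 low cells, called directly (0.52, adjusted p 0.00212) and not date-adjusted (0.41, SE 0.12, adjusted p 0.079). Vcam1, a ligand of the α4 integrins, fell from 79.7 and 56.1 to 17.1 and 13.4 CPM (-2.02, SE 0.32, adjusted p 0.00814). The hyaluronan receptor Cd44 fell by 0.91 (SE 0.17) and the tetraspanin Cd9 by 0.57 (SE 0.13), the latter not called directly (-0.21, adjusted p 0.124). Of the serpins and other protease inhibitors 3 of 11 fell, Serpinb10, Serpinb2 and Serpinb8 (68.3 and 70.6 to 20.9 and 25.3 CPM, -1.67, SE 0.22). In this list directly 5 were higher and 4 lower. Serpina3g, an inhibitor of lysosomal cathepsins that interferon gamma induces, rose from 209 and 225 to 923 and 613 CPM (1.67, SE 0.25, adjusted p 0.0064). Cst3, the abundant protease inhibitor cystatin C, stood at 11323 and 10312 against 13374 and 12924 CPM, a date-adjusted difference of -0.33 (SE 0.12, adjusted p 0.123).

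In pattern recognition receptors and adaptors 4 of 32 rose and 0 fell: Tlr3, the inflammasome sensors Nlrp3 (1.05, SE 0.22) and Nlrp1b (2.32, SE 0.39), and Sting1, the adaptor of cytosolic DNA sensing (0.93, SE 0.20). Beside 3.44% of all genes that rose, the range of this list was 0 to 5 rises, with the fewest without CD103 low replicate 1, and directly 6 were higher and 2 lower. Nlrp1b was not called directly (0.61, adjusted p 0.105), and CD103 negative cells held 14.3 and 17.2 CPM in 2012 and 51.7 in 2013. Tlr9, the receptor of CpG motifs, stood at 168 and 185 CPM in CpG-treated cells and 211 and 177 in CD103 low cells (0.30, SE 0.17, adjusted p 0.327). Among negative regulators of inflammatory signalling 4 of 32 rose and 1 fell, with ranges of 0 to 4 rises and 0 to 4 falls, and directly 5 were higher and 2 lower. Socs1, the feedback inhibitor of interferon receptor signalling, rose from 7.04 and 9.65 to 28.2 and 23.1 CPM (1.87, SE 0.42, adjusted p 0.0315), the repressor Bcl6 rose by 0.73 (SE 0.16) and Socs2, an inhibitor of growth hormone signalling, fell by 1.30 (SE 0.33, directly -0.84). Bcl3 rose by 1.15 (SE 0.22, adjusted p 0.0182) but was not called directly (0.38, adjusted p 0.105). Its date difference of -0.77 was called, and with no date term the call of Bcl3 was lost. Socs3, an inhibitor of interleukin 6 signalling, differed between the CpG CD103 high replicates (25.5 and 7.84 CPM). It was called directly but not date-adjusted (0.63, SE 1.01, adjusted p 0.748).

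In metabolism, glycolysis had 3 of 28 genes higher and 1 lower (ranges 1 to 4 and 0 to 1 genes), and directly 7 were higher and 2 lower. Hexokinase 3 (Hk3) rose from 208 and 212 to 407 and 452 CPM (1.18, SE 0.14, adjusted p 0.00264), phosphofructokinase (Pfkp) rose from 193 and 205 to 412 and 415 CPM (0.88, SE 0.15), and the enolase gene Eno3 fell by 1.36 (SE 0.33). Of 47 genes of oxidative phosphorylation 0 rose and 0 fell (median -0.27), although directly 9 were higher and 5 lower. In edgeR 2 were higher and 14 lower at an unadjusted p under 0.05, and DESeq2 and limma voom also called 0. The most abundant of them, Atp5b of the ATP synthase, gave -0.16 (SE 0.12). Cholesterol synthesis and sterol regulation also had 0 rises and 0 falls among 29 genes, with a median of -0.32 and its regulator Srebf2 at -0.03 (SE 0.15). Directly 1 of these was higher and 2 were lower. Date-adjusted, 2 were higher and 2 lower at an unadjusted p under 0.05 in edgeR, and DESeq2 and limma voom called 0. Of 34 lysosome and proton pump genes 3 rose and 1 fell, with ranges of 0 to 2 rises and 0 to 1 falls, and directly 5 were higher and 4 lower. The protective protein cathepsin A (Ctsa) rose by 0.90 (SE 0.16, directly 0.44) and the protease Ctsh fell from 404 and 384 to 252 and 224 CPM (-0.79, SE 0.17). In the TGF-beta pathway 1 of 25 genes rose, the feedback inhibitor Pmepa1 (9.99 and 13.3 to 29.3 and 29.6 CPM, 1.46, SE 0.36), and 0 fell, while directly 2 were higher and 1 lower. In endoplasmic reticulum folding 1 of 26 rose, the ubiquitin ligase Syvn1 (0.63, SE 0.15), and 0 fell, while directly 5 were higher and 0 lower. These single rises make a share near the 3.44% of all genes, and leaving out a library lost the call of Pmepa1 in 5 and of Syvn1 in 6 of 6 fits.

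Of 51 cell cycle genes 5 fell and 0 rose (median -0.57), with a range of 1 to 10 falls (fewest without CD103 negative replicate 2 or either CD103 low library), and directly 1 was higher and 7 lower (median -0.18). Stmn1, which destabilises microtubules, fell from 22.9 and 23.4 to 8.21 and 13.0 CPM (-2.41, SE 0.34, directly -1.13), but also differed with the date in CD103 negative cells (1.28, SE 0.26). Mcm5, a subunit of the replicative helicase, fell by 0.84 (SE 0.20). Cdk4, a kinase of G1, was called date-adjusted (-0.67, adjusted p 0.0352) and not directly (-0.15, adjusted p 0.365). In the BCL-2 family 3 of 18 fell and 0 rose, all 3 of them copies of the survival factor A1: Bcl2a1b (120.3 and 121 to 67.7 and 58.9 CPM, -1.27, SE 0.23), Bcl2a1d (-1.06, SE 0.16, directly -0.60) and Bcl2a1a (-1.06, SE 0.25, directly -0.63). These copies are similar in sequence, so they are not independent. The range was 0 to 3 falls, and directly 1 was higher and 3 lower. The list of immediate early and stress genes had 4 falls among 34 members: Hspa1a, Hspa1b, the cytosolic chaperone Hsp90aa1 (-0.84, SE 0.16) and the AP-1 subunit Jun (-1.97, SE 0.38, directly -0.85). Hsp90aa1 was not called directly (-0.34, adjusted p 0.0533) and lost its date-adjusted call without either CD103 low library. The list had a range of 3 to 8 falls, and directly 1 was higher and 6 lower. The median of the list was 0.04 directly and -0.63 date-adjusted, with a median date difference of 0.91.

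Cytoplasmic ribosomal proteins build the small and large ribosomal subunits, and their genes are usually expressed in step. Date-adjusted 22 of 50 fell and 0 rose (median -0.67), beside 2.78% of all genes that fell. Directly 20 were lower and 2 higher (median -0.29), beside 7.59% and 7.51% of all genes. Without CD103 low replicate 1 the date-adjusted number that fell was 3. Members differed in how far the date entered. Rps4x stood at 114 and 125 CPM in CpG-treated cells and 250.2 and 219 in CD103 low libraries with a date difference of 0.03 (SE 0.12) and a date-adjusted one of -1.0 (SE 0.16). Rps9 fell by 1.13 (SE 0.15) date-adjusted and by 0.60 (SE 0.10) directly. Ribosomal protein genes have many processed copies in the genome, so reads with several matches bear on their counts.

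**Figure D5:**
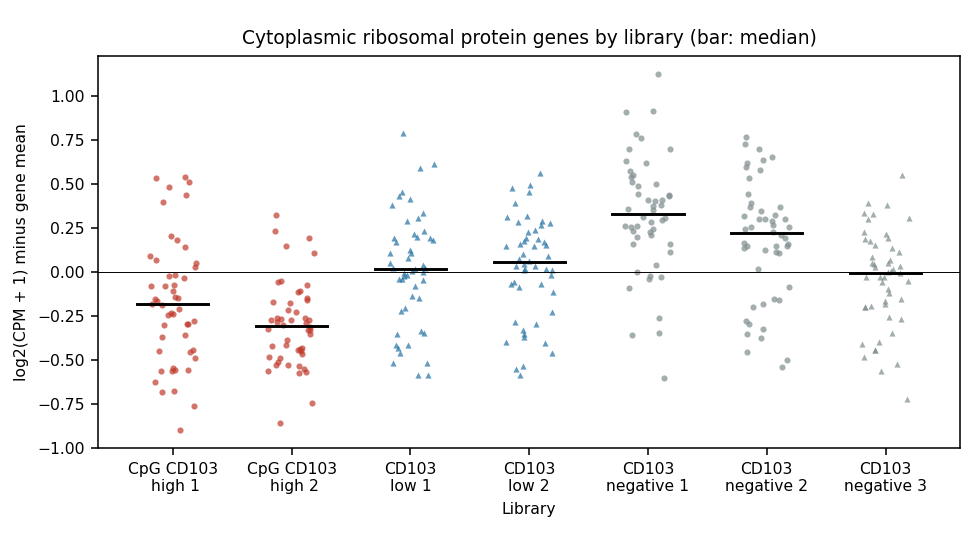
Levels of 50 cytoplasmic ribosomal protein genes in each library, as log2(CPM + 1) minus the gene's mean over the 7 libraries, with the median as a bar. Medians are -0.19 and -0.31 in CpG CD103 high, 0.02 and 0.05 in CD103 low, and 0.33, 0.22 and -0.01 in CD103 negative libraries.

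CD103 negative cells of both dates were used to mark direct differences that moved with the date. The 2013 side is 1 library, so the date and the make-up of that library cannot be told apart. A direct call was marked when the date difference was itself called or had the same sign and at least 50% of the size. This held for 374 of 1640 directly called genes (22.8%), 227 higher and 147 lower, and 120 changed sign after the adjustment. The date difference itself was called in 376 genes (3.46%), 141 higher (1.3%) and 235 lower (2.16%) in 2012. Among named genes averaging 3 or more log2 CPM, with no overlap between the groups' CPM, the widest marked rises were Rps15a-ps5, a ribosomal protein pseudogene, Socs3 and Atp5g1, a subunit of the ATP synthase. Atp5g1 stood at 24 and 19.7 CPM in CpG-treated cells and 7.27 and 4.83 in CD103 low libraries, but at 23.5 and 29.3 in CD103 negative cells of 2012 and 3.62 in those of 2013. Its direct difference of 1.85 (SE 0.24) became -1.01 (SE 0.45, adjusted p 0.21). Rps15a-ps5 likewise went from 2.04 to -1.05 (SE 0.53). Under the same limits the widest marked falls were Ifitm3, Stra6l and Cacna1e. Stra6l, a membrane receptor for retinol-binding protein, fell in both forms (-2.32 directly and -1.30 date-adjusted, SE 0.20 and 0.29). Cacna1e, a calcium channel subunit, stood at 33.1 and 65.9 CPM in CpG-treated cells, 200.3 and 193 in CD103 low, 59.3 and 60.1 in CD103 negative cells of 2012 and 208 in those of 2013, and its date-adjusted difference was -0.19 (SE 0.34).

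Some markers of other cell types moved. In these bulk samples fewer cells of a type and less RNA per cell cannot be told apart. The B cell genes Ms4a1 (CD20) and Cd22 fell from 48.6 and 47.6 and 19.3 and 15.4 CPM in CD103 low to 8.21 and 9.64 and 2.44 and 3.36 in CpG-treated cells (-2.71, SE 0.31, and -2.29, SE 0.36), and Fcrla fell by 0.93 (SE 0.22). Cd79a, which defines B cells, had 0 and 0 counts in CpG-treated cells and 0 and 5 in CD103 low libraries. Of 7 B cell markers 3 thus fell and 4 were directly lower. The summed list, mostly Ighm, lay at 602 and 572 CPM in CpG-treated cells and 674 and 655 in CD103 low cells. Of the cDC2 markers 2 of 12 fell, Cd4 (31.1 and 30.1 to 8.43 and 9.19 CPM, -1.41, SE 0.27) and Ltb. In that list the range was 0 to 2 falls, and directly 1 was higher and 4 lower. It summed to 481 and 424 CPM in CpG-treated cells and 486 and 459 in CD103 low libraries. The C-type lectin gene Cd209a had 0 and 0 counts in CpG-treated libraries, 3.63 and 5.29 CPM in CD103 low libraries and 21.3 CPM in CD103 negative replicate 3.

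Ly6c2, a marker of monocytes and plasmacytoid dendritic cells, stood at 48.4 and 26.9 CPM in CpG-treated cells and 9.76 and 11.3 in CD103 low libraries. CD103 negative cells held 8.56 and 10.8 CPM in 2012 and 45.8 in 2013, so the date-adjusted rise of 4.08 (SE 0.42) exceeds the direct one of 1.84 (SE 0.28). Ly6c2 and Irf7 were the 2 of 12 plasmacytoid markers that rose, and 0 fell, while directly 4 were higher and 4 lower. Siglech, which defines these cells, had 2 and 2 counts in the CpG-treated libraries. Irf7, an interferon factor that plasmacytoid cells also hold, rose from 129.6 and 162 to 321 and 289.8 CPM (0.95, SE 0.23). Lyz2, lysozyme of monocytes and macrophages, fell from 243 and 230.1 to 79.0 and 51.3 CPM (-1.77, SE 0.31, adjusted p 0.0138), and the neutrophil gene S100a9 was at 11.1 and 9.86 against 0.681 and 0.460 CPM, called directly (4.13, adjusted p 0.0056) but not date-adjusted (adjusted p 0.767). Of 5 measured monocyte and neutrophil markers 1 rose and 1 fell, while directly 3 were higher and 1 lower. Of the macrophage markers 2 of 12 fell, Vcam1 and Cd68 (-0.54, SE 0.13), and 1 rose, Hmox1, while directly 1 was higher and 3 lower. The complement gene C1qa stood at 1.55 and 0.896 CPM in CpG-treated cells and 4.31 and 0.230 in CD103 low libraries. Their summed levels were 605 and 683 and 591 and 525 CPM. T cell and NK cell markers had 3 and 2 measured members and 0 date-adjusted calls, with Cd5 at -1.55 (SE 0.61) and Klrk1 at 0.52 (SE 0.20) the most abundant tested. Directly 2 T cell markers were lower and 0 higher, and 1 NK cell marker was higher and 1 lower. Date-adjusted, at an unadjusted p under 0.05 in edgeR, 3 T cell markers were lower and 1 NK cell marker was higher. DESeq2 and limma voom called 0. T cell markers summed to 11.1 and 6.5 CPM in CpG-treated cells and 21.6 and 80.0 in CD103 low libraries. The part of these markers in the gene groups above was not tested.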

How the data were processed

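Raw read counts per Entrez gene were analysed as the authors deposited them, in 1 file per library with 27179 genes, of which 93% matched a symbol in RefSeq. CASAVA, Subread 1.4.6, featureCounts and the build mm10 are named without roles, per the submitters' processing notes. The sources used here state no annotation, strand setting or handling of multiply mapped reads, so antisense partners and near-identical copies could not be told apart. The deposited gene length column, another value in the files, was not used. A table of the whole series with 7 columns that match no label was not used here.

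Genes were kept by filterByExpr and scaled by TMM, and a quasi-likelihood model of group by date was fitted to all 7 libraries (3 residual degrees of freedom) with edgeR 4.0.16 in R 4.3.3. The SE is the log2 fold change divided by the square root of F. The method was tested on simulated data. Alternatives used DESeq2 1.42.0 and limma 3.58.1 voom. Where nothing says that samples came from separate animals, p-values measure the spread between these samples. A count of 0 allows up to 3 counts, 0.637 to 0.688 CPM, and intervals cover counting error only. Same-numbered libraries of different groups deviated together with correlations from -0.00641 to 0.168. The highest was that of CpG CD103 high replicate 1 with CD103 negative replicate 1, which share a date. With so few replicates per group, these values cannot decide whether the numbers pair the libraries.

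Named genes are Itgae and Cd8a, the 10 largest rises and falls called in both contrasts without a date mark, above an average log2 CPM of 3, without overlap of the compared libraries and without a predicted name, and up to 3 called members per list, or the most abundant. The 3 largest date-marked rises and falls complete them. Any gene outside this rule was chosen with its values in view. Members and lists were chosen with earlier results of these data known. Some genes that the rule names are not reported here.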

Additional observations from a re-analysis of the deposited data

How the results depend on the processing

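With relative log expression scaling, the stricter filter on low counts (at least 5 CPM in at least 2 libraries), limma voom and the replicate block, the counts of called genes stayed within 1.5 times of the reported ones in both contrasts, as did the direct ones from the 4 compared libraries alone. The replicate block gave 781 date-adjusted and 1775 direct calls against 676 and 1640, and changed no date-adjusted call of a named gene. Without a filter on low counts 263 genes were called date-adjusted (131 higher, 132 lower). DESeq2 called 390 date-adjusted (201 higher, 189 lower) and 876 directly (444 and 432). A test against a change of 1.5-fold left 104 date-adjusted (49 and 55) and 287 direct calls (123 and 164). With no date term 870 genes were called, 386 higher and 484 lower. Both contrasts together called 202 genes with no filter on low counts, 265 genes with DESeq2 and 78 genes with the test against 1.5-fold. Leaving out 1 library at a time gave 115 to 748 date-adjusted calls (52 to 452 higher, 63 to 296 lower), 513 to 1668 direct calls (217 to 906 higher, 296 to 812 lower) and 91 to 430 in both. The date-adjusted contrast could not be fitted without CD103 negative replicate 3. Of 80 named genes called date-adjusted, 44 lost the call without CD103 low replicate 1, 42 without CD103 low replicate 2 and 27 without the filter. Where no construction shows it, the cause of these changes was not tested.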
